A study of Mus musculus with 4 samples.

Results

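The nuclear factor I (NFI) genes Nfia, Nfib, Nfic and Nfix were described in single-cell transcriptomes of the embryonic mouse forebrain. They were chosen by symbol as the complete gene family, and they are 4 of 43346 features in the count tables. Droplet single-cell RNA sequencing was carried out on dissociated tissue of wild-type embryos (C57BL/6 background) at E12.5 (days of embryonic age), with no treatment. The dorsal cortex (CTX) gave 1 library, and so did each ganglionic eminence, the lateral (LGE), the medial (MGE) and the caudal (CGE), and each library pooled tissue of several embryos. The labels describe a sort for live cells, whereas the study's methods describe wild-type cells as unsorted, and this was not settled.

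NFI proteins are transcription factors that bind DNA as dimers through a conserved domain near the amino terminus, and their preferred site is a palindrome of TTGGC and its reverse complement, GCCAA. Nfia, Nfib and Nfix are best known in the developing forebrain for roles in radial glia, in the onset of gliogenesis and in the maturation of cortical projection neurons. Nfic is expressed more broadly and is known for its part in tooth root formation.

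All values are counts of unique molecular identifiers (UMIs) read near the 3′ end of transcripts, given as counts-per-million (CPM) of the summed cells. Levels of different genes on this scale depend on how well each transcript's end is captured, so each gene is compared with itself and the family members are not ranked against each other. Progenitors were taken as high-Nes cells and young neurons as high-Dcx cells, with ln(1 + UMIs per 10000) above 1.5 for Nes, an intermediate filament gene of neural progenitors, or Dcx, a microtubule gene of migrating neurons. Cells past both gates were left out of these classes. After filtering, 3193 to 4734 cells per library remained, with a median of 6940 to 8239 UMIs. In the order CTX, LGE, MGE and CGE there were 881, 582, 513 and 164 high-Nes cells and 784, 2046, 2168 and 2267 high-Dcx cells. The region labels were borne out by their markers. Emx1, a gene of dorsal forebrain, reached 189 CPM in CTX and at most 4.54 CPM elsewhere. Nkx2-1, a gene of the MGE, reached 790 CPM in MGE and at most 52.2 CPM elsewhere. Between 4 and 15 barcodes were shared by any pair of libraries. Brackets give 95% intervals that cover counting error only, and no test was made between regions because each had 1 library.

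The family members are spread over 3 chromosomes (GRCm38, GENCODE M21). Nfia lies at chr4:97772734-98118874 on the plus strand, Nfib at chr4:82290173-82705750, Nfic at chr10:81396186-81455635 and Nfix at chr8:84699876-84800344, the last 3 on the minus strand. RefSeq promoter windows (GRCm38.p6), which run from 250 bases before to 50 bases after an annotated start, were matched for Nfia, Nfic and Nfix. They are shown because Nfia and Nfix had closely similar profiles below and Nfic did not, with the letters TTGGC or GCCAA, the NFI core on either strand, in capitals. The Nfia window belongs to a RefSeq start that lies upstream of the GENCODE gene start given above and inside the antisense gene E130114P18Rik (chr4:97568133-97778078), so it is the window of that start only. For Nfix the first of 4 windows by coordinate is given, which on the minus strand is the most downstream. The Nfic and Nfix windows lie inside the GENCODE genes, downstream of the gene starts, so they too are windows of those RefSeq starts only.
Nfia (chr4:97581693-97581992, plus strand): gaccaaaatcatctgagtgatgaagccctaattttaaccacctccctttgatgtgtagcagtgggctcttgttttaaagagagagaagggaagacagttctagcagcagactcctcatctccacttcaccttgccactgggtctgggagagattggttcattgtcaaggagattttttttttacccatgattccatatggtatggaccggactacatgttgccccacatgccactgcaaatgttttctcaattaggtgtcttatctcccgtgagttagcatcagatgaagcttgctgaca
Nfix (chr8:84772826-84773125, minus strand): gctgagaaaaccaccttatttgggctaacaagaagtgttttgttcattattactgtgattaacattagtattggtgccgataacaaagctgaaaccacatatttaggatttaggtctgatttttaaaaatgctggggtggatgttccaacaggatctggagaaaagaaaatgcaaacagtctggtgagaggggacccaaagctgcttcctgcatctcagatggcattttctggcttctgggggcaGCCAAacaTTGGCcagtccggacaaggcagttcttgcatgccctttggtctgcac
Nfic (chr10:81427124-81427423, minus strand): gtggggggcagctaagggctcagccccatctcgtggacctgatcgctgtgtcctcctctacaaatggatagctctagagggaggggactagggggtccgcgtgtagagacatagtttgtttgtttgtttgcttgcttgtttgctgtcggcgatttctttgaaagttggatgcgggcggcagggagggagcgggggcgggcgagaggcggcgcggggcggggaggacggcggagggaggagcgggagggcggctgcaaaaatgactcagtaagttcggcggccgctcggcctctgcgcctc
The Nfix window held the core 2 times, once on each strand, the first match beginning at position -5 from the annotated start. The core was present in 3 of the 4 Nfix windows and in neither the Nfia nor the Nfic window, and 46.7% of 32851 promoter windows of the same length held it. The full palindrome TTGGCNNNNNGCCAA was in none of the 6 windows of the family and in 12 of 32851 windows in all (0.0365%). These matches describe letters in a window and are not evidence of binding.

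Nfia, Nfib and Nfix had opposite class patterns in the cortex and in the eminences. In CTX they were higher in neurons than in progenitors, and in LGE, MGE and CGE they were lower. Nfic was higher in progenitors in 4 of 4 libraries. In high-Nes cells the Nfia level of CTX was 377 CPM [363–391], that of LGE 233 [220–247], that of MGE 306 [291–322] and that of CGE 331 [302–361]. In high-Dcx cells it was at 917 [894–940], 46.6 [43.1–50.2], 97.1 [92.0–102] and 129 [124–135] in the same order. The high-Dcx cells of CTX were therefore 2.43-fold [2.32–2.54] above the high-Nes cells, whereas high-Nes cells were 5.00-fold [4.54–5.51], 3.16-fold [2.93–3.40] and 2.56-fold [2.32–2.83] above high-Dcx cells in LGE, MGE and CGE.

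Nfib, a gene required for normal cortical and callosal development, was at 1253 CPM [1228–1279], 358 [342–375], 497 [478–517] and 1019 [968–1071] in high-Nes cells of CTX, LGE, MGE and CGE. In high-Dcx cells it was at 3628 [3582–3674], 107 [101–112], 425 [414–436] and 494 [483–505]. The neuronal level was 2.90-fold [2.83–2.97] the progenitor level in CTX. The progenitor level was 3.36-fold [3.14–3.60] the neuronal level in LGE and 2.06-fold [1.95–2.18] in CGE, but only 1.17-fold [1.12–1.23] in MGE, where both classes held similar amounts.

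Nfix, a gene tied to neural stem cell quiescence, was at 759 CPM [739–778], 154 [144–166], 268 [254–283] and 289 [262–317] in high-Nes cells of CTX, LGE, MGE and CGE. In high-Dcx cells it was at 1586 [1556–1617], 5.11 [4.01–6.43], 22.3 [19.9–24.8] and 33.8 [30.9–36.8]. It had the steepest class contrast of the family in each eminence, 30.2-fold [23.7–38.9] in LGE, 12-fold [10.7–13.6] in MGE and 8.56-fold [7.52–9.73] in CGE, against a 2.09-fold [2.02–2.16] difference in the opposite direction in CTX. Nfic was low throughout, at 65.1 CPM [59.5–71.1], 27.5 [23.1–32.6], 36.7 [31.6–42.4] and 36.5 [27.5–47.5] in high-Nes cells and at 28.3 [24.4–32.6], 13.5 [11.7–15.6], 14.3 [12.4–16.4] and 18.0 [16–20.2] in high-Dcx cells. Its high-Nes level was 2.03-fold to 2.56-fold its high-Dcx level.

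**Figure D1:**
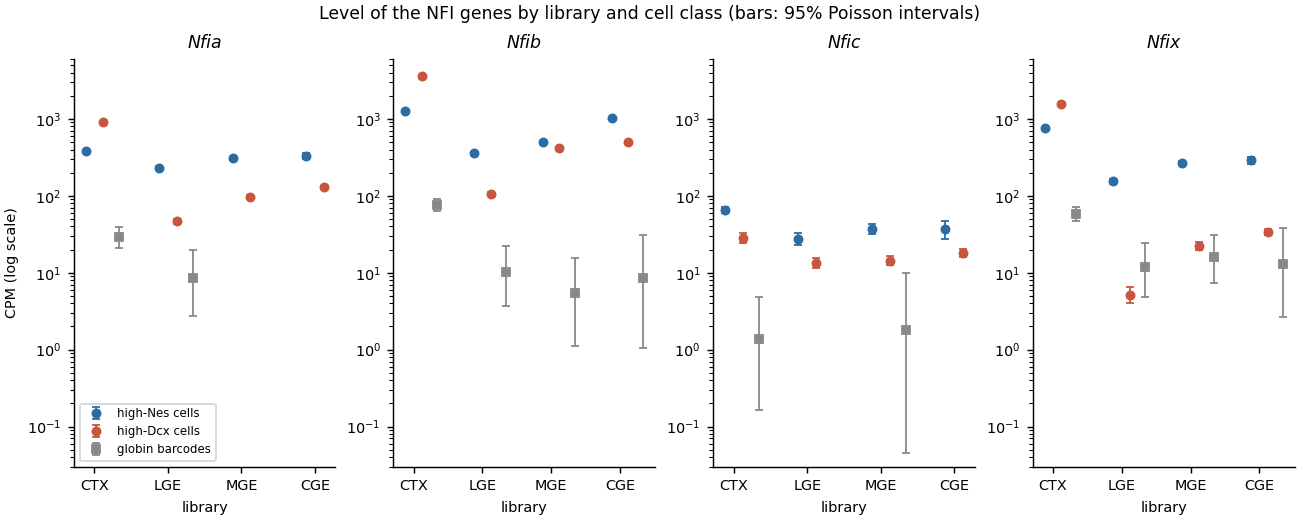
CPM (log scale) of each NFI gene in summed high-Nes cells (blue), high-Dcx cells (red) and globin-filled barcodes (grey squares, shown where at least 1 UMI was counted) of each library, with 95% Poisson intervals. For Nfia, Nfib and Nfix the red point is above the blue point in CTX and below it in LGE, MGE and CGE, and for Nfic it is below in each library.

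Barcodes with 50% or more globin UMIs, which were taken as erythroid, served as a reference for free RNA. There were 156, 59, 53 and 17 of them in CTX, LGE, MGE and CGE, with median depths of 10085, 10080, 10864 and 13949 UMIs, against 7924, 6439, 6346.5 and 6750 in high-Dcx cells. Nfix was counted at 0.551, 0.119, 0.170 and 0.176 UMIs per such barcode in these libraries. The high-Dcx cells held 13.4 Nfix UMIs per cell in CTX, far above this level, but 0.0357, 0.148 and 0.234 in LGE, MGE and CGE. The mean neuronal Nfix count in LGE and MGE was thus below the globin barcodes and that in CGE was 0.234 against 0.176, and the Nfix class ratios of the eminences rest on these low counts. The counts were not even over cells, since the highest count in a single high-Dcx cell of LGE, MGE and CGE was 13, 8 and 24, and marker gates below differed within CGE. Nfib in high-Dcx cells stood above the globin barcodes in all 4 libraries, at 30.6 against 0.724 UMIs in CTX, 0.744 against 0.102 in LGE, 2.82 against 0.0566 in MGE and 3.43 against 0.118 in CGE. Nfia did so too, at 7.73 against 0.276 in CTX and 0.325 against 0.0847 in LGE, and no Nfia UMI was found in the globin barcodes of MGE and CGE. For Nfic the globin barcodes held 3 UMIs in all, in 285 barcodes. The counts were uneven there too, with 124 Nfib UMIs in 42 of the 285, 48 Nfia UMIs in 23 and 105 Nfix UMIs in 56. In globin barcodes of CTX, LGE, MGE and CGE, Nfix had 86, 7, 9 and 3 UMIs and Nfib 113, 6, 3 and 2. All kept cells held 1045, 52.8, 86.2 and 89.9 CPM of Nfix and 2061, 186, 404 and 558 of Nfib. Doublets were not removed from the globin barcodes. How much of their counts is free RNA, and how much is RNA of the erythroid cells themselves, was not tested, so they are not a proven blank.

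In the eminences the class differences lay in how many cells carried a UMI as well as in the sums. So did the difference between CTX and eminence neurons, whereas the Nfib share in CTX was similar in both classes. After each cell was thinned to 3000 UMIs, Nfib was detected in 95.4% [93.8–96.7], 61.2% [57.0–65.2], 68.6% [64.4–72.6] and 85.8% [79.5–90.8] of the high-Nes cells of CTX, LGE, MGE and CGE. In high-Dcx cells the shares were 94.8% [93.0–96.3], 18.6% [16.9–20.3], 50.7% [48.5–52.8] and 48.2% [46.1–50.3]. At their own depth the high-Dcx shares were 95.2%, 32.7%, 63.3% and 60.1%. Nfix was detected in 90.4% [88.1–92.4] of thinned high-Dcx cells in CTX, but in 1.44% [0.969–2.07] in LGE, 4.91% [4.03–5.92] in MGE and 6.22% [5.25–7.30] in CGE. Globin barcodes thinned in the same way had shares of 8.03% [4.08–13.9], 5.45% [1.14–15.1], 6.25% [1.31–17.2] and 5.88% [0.149–28.7]. The eminence shares lay within the intervals of the globin barcodes, which rest on 3 of 55, 3 of 48 and 1 of 17 barcodes. Whether the neuronal Nfix counts are free RNA was not tested. The Nfia shares in thinned high-Dcx cells were 84.8%, 10.6%, 19.5% and 25.5%, and the Nfic shares were 7.13%, 3.09%, 4.16% and 5.15%. Thinning left out 2 to 52 shallower cells per class and library. In the MGE, 50.7% of neurons with a Nfib UMI and a 90th percentile of 8 Nfib UMIs at own depth, beside a median of 1, show how unevenly the gene was spread over these cells.

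Counting family members per cell gave a like contrast between CTX and eminence neurons and between classes in the eminences. Of thinned high-Dcx cells in CTX, 74.4% held UMIs of exactly 3 members and 3.63% of none. In LGE 71.3% of high-Dcx cells held none and 4.58% held 2 or more. In the other eminences, MGE and CGE, 41.3% and 41.1% held none. Among high-Nes cells of CTX, LGE, MGE and CGE, 92.5%, 50.7%, 61.2% and 71.0% held 2 or more. In CTX 93.4% of high-Dcx cells did, so the CTX classes were alike on this measure.

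The class contrast was then tested across libraries with edgeR's quasi-likelihood test on the 8 sums, with the library as a block and Benjamini-Hochberg adjustment. Here libraries of different regions serve as replicates of the class contrast, so their spread includes region. Of 12306 genes tested, 27.9% were called higher and 28.1% lower in high-Nes cells, and 1 of 4 members was called. Nfic was higher in high-Nes cells, with a log2 fold change of 1.07 ± 0.11 (SE, adjusted p = 0.000945). Nfia was at 1.00 ± 0.61 (adjusted p = 0.208), Nfib at 0.32 ± 0.54 (adjusted p = 0.641) and Nfix at 2.75 ± 1.08 (adjusted p = 0.0732). With DESeq2 Nfix passed the threshold (adjusted p = 0.00848).

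Without CTX, over the 3 eminences, 27.1% of 13016 genes were called higher and 27.7% lower, and 4 of 4 members were called higher in high-Nes cells. The log2 fold changes were 1.69 ± 0.19 for Nfia (adjusted p = 0.00102), 0.91 ± 0.26 for Nfib (adjusted p = 0.0287), 1.05 ± 0.15 for Nfic (adjusted p = 0.0026) and 3.70 ± 0.34 for Nfix (adjusted p = 0.000579). Each was higher in 3 of 3 libraries. The share of all genes called in that direction sets the scale for this count. The opposite direction in CTX rests on 1 library and its difference from the eminences was not tested.

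**Figure D2:**
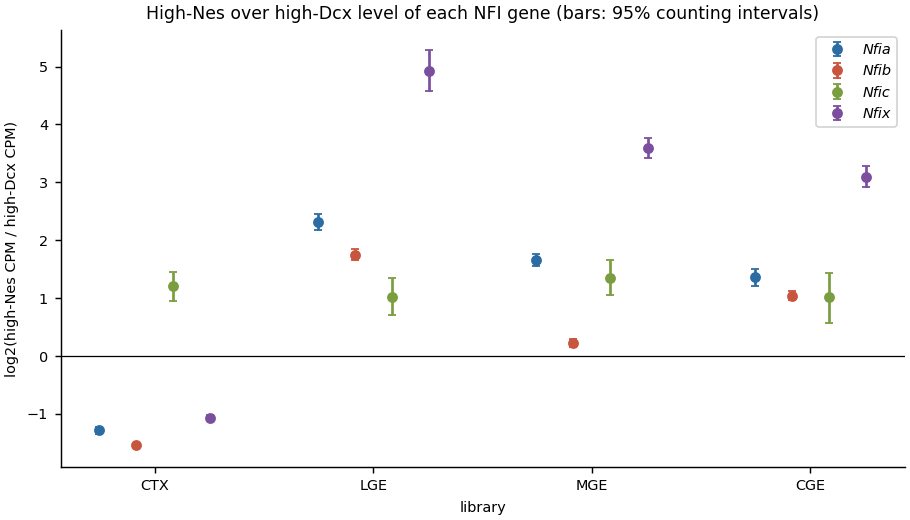
Log2 of the high-Nes over the high-Dcx CPM of each NFI gene by library, with 95% counting intervals and a line at no difference. In CTX Nfia, Nfib and Nfix lie between -1.53 and -1.06 and Nfic at 1.20, and in the eminences every point is above 0, from 0.23 for Nfib in MGE to 4.92 for Nfix in LGE.

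Pairs of family members were compared on the log2 class ratio with an exact two-sided sign-flip permutation test over the 4 libraries, 6 pairs in all. Nfix had a higher log2 ratio than Nfia in 4 of 4 libraries, by 1.62 ± 1.01 (SD, n = 4, adjusted p = 0.25 from the exact permutation test), and than Nfib in 4 of 4, by 2.26 ± 1.33 (exact permutation, adjusted p = 0.25). Nfia exceeded Nfib in 4 of 4, by 0.64 ± 0.54, with the same adjusted p, the smallest reached. The 3 pairs with Nfic changed sign between libraries, with adjusted p of 0.6 to 1. The design cannot reach 0.05 for any pair.

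Between regions, the CTX level was set against the mean of the 3 eminences, and a ratio above 1.5 was used to describe it. In high-Dcx cells the ratio was 10.1 [9.69–10.5] for Nfia, 10.6 [10.4–10.8] for Nfib, 1.85 [1.57–2.18] for Nfic and 77.8 [72.8–83.2] for Nfix. Of 6621 genes at 20 or more mean CPM, 7.33% exceeded 1.5 in that direction and 10.8% in the other. Nfic fell below that mean level in high-Dcx cells and is not among these genes. In high-Nes cells the ratio was 1.30 [1.23–1.37] for Nfia, 2.01 [1.93–2.08] for Nfib, 1.94 [1.67–2.25] for Nfic and 3.20 [3.03–3.37] for Nfix, so 3 of 4 members passed 1.5, against 4.15% of 6675 genes, with 7.67% passing in the other direction. The Nfix value in neurons is set against an eminence mean of low counts, near those of the globin barcodes.

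Among the eminences LGE was lowest for each of Nfia, Nfib and Nfix in both classes. In high-Dcx cells the order was CTX, CGE, MGE, LGE for each of the 4 members. MGE and CGE neurons differed by less than the CTX step, with MGE at 0.752-fold [0.702–0.805] CGE for Nfia, 0.861-fold [0.832–0.890] for Nfib and 0.660-fold [0.572–0.759] for Nfix, and the LGE and MGE intervals of Nfic overlapped. In high-Nes cells CGE progenitors were close to CTX for Nfib, with CTX at 1.23-fold [1.17–1.30], while MGE was at 0.488-fold [0.458–0.520] CGE. MGE and CGE progenitors did not differ beyond counting error for Nfia (0.927-fold [0.837–1.03]), Nfic (1.00-fold [0.740–1.38]) or Nfix (0.928-fold [0.833–1.04]).

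All kept cells were next binned by Dcx, without the Nes gate. In CTX Nfib was higher at higher Dcx, from 1241 CPM in cells with no Dcx UMI to 2375, 3232, 3625 and 3598 CPM in successive bins. In LGE it went from 317 to 187, 115, 115 and 102 CPM. In MGE it was nearly level, at 406, 364, 369, 392 and 457 CPM, and in CGE it dipped from 798 to 405 CPM and stood at 538 CPM in the highest bin. Nfix went from 133 to 3.46 CPM in LGE, from 177 to 16.8 in MGE and from 277 to 30.9 in CGE, lower in each successive bin. In CTX it was at 749 CPM in the lowest bin, 1659 [1620–1698] in the bin of 1.5 to 2 and 1443 [1397–1491] in the highest. Nfia in CTX was likewise lower in the highest bin, at 868 [832–906] against 945 [916–974].

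**Figure D3:**
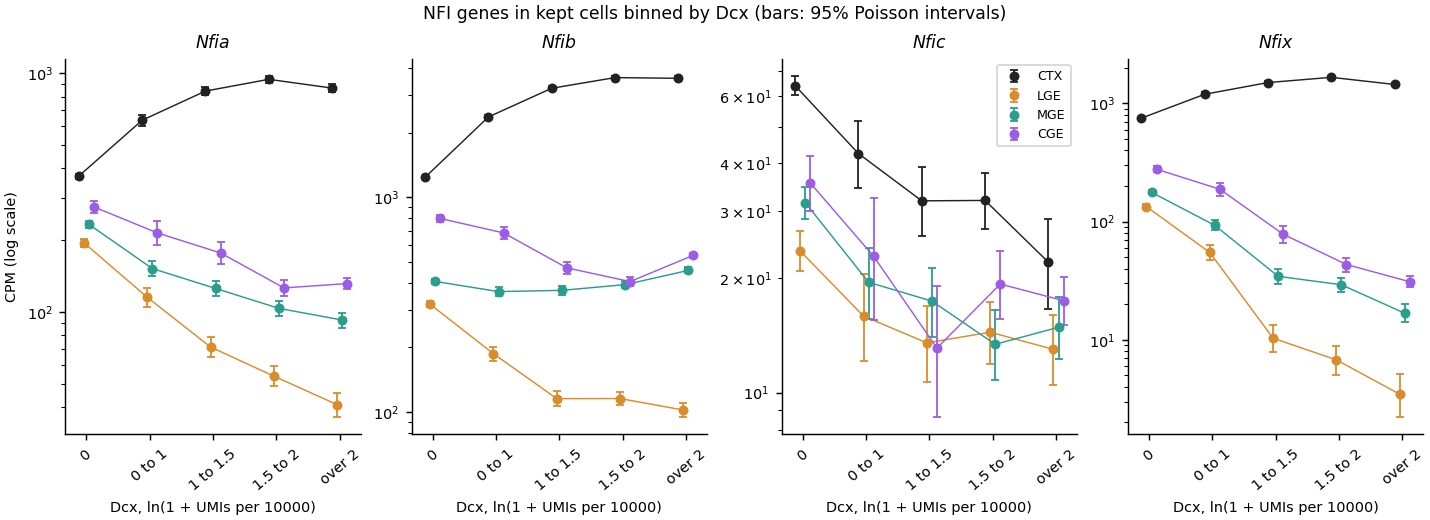
CPM (log scale) of each NFI gene in all kept cells, binned by ln(1 + UMIs per 10000) of Dcx, by library (CTX black, LGE orange, MGE green, CGE purple), with 95% Poisson intervals. In CTX Nfia, Nfib and Nfix are higher in each bin with a Dcx UMI than in the bin with none, with Nfia and Nfix lower in the highest bin (868 and 1443 CPM) than in the bin before it (945 and 1659), while Nfix descends in each eminence, to 3.46 CPM in LGE.

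The neurogenic steps within the eminences were resolved with the zone classes of the study. Ventricular zone (VZ) cells had Nes above 1.5, whether or not they passed the Dcx gate, unless they met the SVZ criteria. Mitotic subventricular zone (SVZ) cells had Dcx above 1.5 and Mki67 and Ccnd2 above 0.5, with Mapt and Rbfox3 below 0.5. Mantle zone (MZ) cells passed the Dcx gate and had values below 0.5 for the cycling genes Ccnd1, Ccnd2 and Mki67 and for the progenitor genes Hes5 and Nes. Nfix was at 147, 265 and 283 CPM in VZ cells of LGE, MGE and CGE, at 6.53, 42.3 and 65.5 in SVZ cells and at 8.31, 12.4 and 17.8 in MZ cells. Nfia was at 225, 304 and 327 CPM in VZ cells, 94.3, 141 and 235 in SVZ cells and 20.2, 74.1 and 92.9 in MZ cells. Nfib was at 350, 502 and 1019 CPM in VZ cells, 164, 392 and 573 in SVZ cells and 74.8, 461 and 453 in MZ cells, with MZ above SVZ in MGE.

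Between VZ and SVZ cells, edgeR called 17.4% of 11725 genes higher and 18.7% lower in VZ cells, and 3 of 4 members higher. The log2 fold change was 2.85 ± 0.31 for Nfix (adjusted p = 0.000109), 1.06 ± 0.21 for Nfic (adjusted p = 0.00345) and 0.86 ± 0.24 for Nfia (adjusted p = 0.02), and Nfib was at 0.68 ± 0.28 (adjusted p = 0.0845). The SVZ level of Nfix in LGE rested on 23 UMIs in 386 cells, fewer per cell than in the globin barcodes. The Nfia call was lost without MGE (adjusted p = 0.0643) and with DESeq2 (adjusted p = 0.0547), and Nfib passed without MGE (adjusted p = 0.0136). Between SVZ and MZ cells 22.7% of genes were higher and 22.9% lower in SVZ cells, and 2 of 4 members were higher. Nfia was at 1.44 ± 0.26 (edgeR adjusted p = 0.0013) and Nfix at 1.36 ± 0.38 (adjusted p = 0.0143). The Nfix call had MZ counts near those of the globin barcodes, and it was lost without MGE (adjusted p = 0.12) or without CGE (adjusted p = 0.1). In LGE Nfix went the other way, at 6.53 CPM in SVZ cells (23 UMIs) and 8.31 in MZ cells (28 UMIs), with overlapping intervals. Nfib was at 0.39 ± 0.28 (adjusted p = 0.293), passing without MGE at 0.75 ± 0.21 (adjusted p = 0.0157), and Nfic was at -0.04 ± 0.22 (adjusted p = 0.999).

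**Figure D4:**
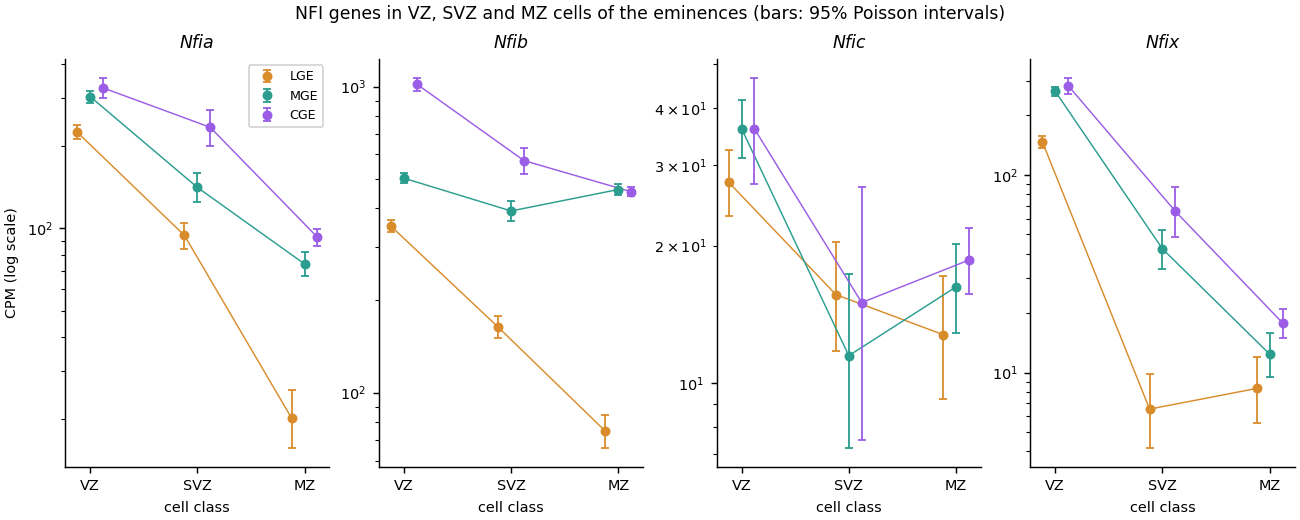
CPM (log scale) of each NFI gene in VZ, SVZ and MZ cells of LGE (orange), MGE (green) and CGE (purple), with 95% Poisson intervals. Nfix drops between VZ and SVZ in each eminence, from 265 to 42.3 CPM in MGE for instance, and Nfib in MGE stays between 392 and 502 CPM across the zones.

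Neurons were then split by marker genes, since the high-Dcx class holds several types. In CTX, cells with Eomes above 1.5 (826 cells), a gene of intermediate progenitors, held 612 CPM of Nfia, 2274 of Nfib and 1036 of Nfix, between the high-Nes and the high-Dcx levels. High-Dcx cells with 2 or more UMIs of Neurod2 and Neurod6, genes of excitatory neurons, and none of Gad2 and Dlx5 made up 91.3% of the CTX class (716 cells), with Nfia at 962 CPM [937–986], Nfib at 3808 [3760–3857] and Nfix at 1661 [1630–1694]. The 37 CTX cells with both Reln and Trp73, genes that mark Cajal-Retzius cells, were at 680 CPM [595–774], 3296 [3105–3496] and 1820 [1678–1970].

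The inhibitory marker cells of the same cortical library had low levels. A split chosen after the data had been seen took high-Dcx cells with 2 or more UMIs of Gad2, a GABA-synthesis gene, and Dlx5, a homeobox gene of inhibitory precursors, and no Neurod2 or Neurod6. In CTX these 41 cells held Nfia at 51.0 CPM [25.5–91.2], Nfib at 111 [71.3–166] and Nfix at 46.4 [22.2–85.2]. The excitatory marker cells were 18.9-fold [10.5–37.8] above them for Nfia, 34.2-fold [23.0–53.4] for Nfib and 35.8-fold [19.5–74.8] for Nfix, but not for Nfic (1.02-fold [0.459–2.82]). The counts per inhibitory marker cell, 0.268 for Nfia, 0.585 for Nfib and 0.244 for Nfix, were no higher than in the globin barcodes of CTX (0.276, 0.724 and 0.551). Whether these inhibitory marker counts are free RNA was not tested. The same gate gave 42.6, 95 and 115 CPM of Nfia and 102, 418 and 503 CPM of Nfib in LGE, MGE and CGE. It gave 3.93, 21.4 and 24.7 CPM of Nfix. Within this gate CTX was at 0.605-fold the eminence mean for Nfia and 0.326-fold for Nfib, the reverse of the whole class, and at 1.87-fold for Nfic and 2.78-fold for Nfix, in the direction of the whole class. These ratios have no interval and rest on 11, 24, 6 and 10 CTX UMIs of Nfia, Nfib, Nfic and Nfix. The CTX interval of Nfic, 10.2 to 60.5 CPM, includes the eminence mean of 14.9. Of the 27 CTX high-Dcx cells with no UMI of Nfia, Nfib or Nfix, 88.9% [70.8–97.6] carried Gad2 or Dlx5 and 3.70% [0.0937–19.0] carried Neurod2 or Neurod6. Of the other 757 cells, 4.36% and 96.0% did. The cells with none were shallower, at a median of 5460 against 8031 UMIs.

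Excitatory marker cells were also present in CGE and had another balance of the family. The 75 CGE cells of that gate were at 399 CPM [350–453] for Nfia, 282 [241–328] for Nfib, 3.34 [0.404–12.1] for Nfic and 140 [112–174] for Nfix. Nfia and Nfix were above the inhibitory marker cells of CGE (115 and 24.7 CPM), whereas Nfib was below them (503 CPM), and each of Nfia, Nfib and Nfix was below the CTX cells of the same gate.

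Nfia, Nfib and Nfix levels also varied among inhibitory marker gates. The gates in this paragraph were set on all cells with Dcx above 1.5. Cells with Prox1 and Nr2f2 and no Lhx6, a CGE combination, held 683 CPM [660–705] of Nfib, 215 [202–227] of Nfia and 61.4 [54.8–68.5] of Nfix in CGE (703 cells). The 587 CGE cells with Lhx6, a gene of MGE-derived interneurons, and no Lhx8 or Ebf1 held 473 [451–495], 81.6 [73.0–91.1] and 8.65 [5.99–12.1]. Both sets came from 1 library, and their intervals did not overlap for Nfia, Nfib or Nfix. In MGE, Lhx6 cells of that gate were at 494 CPM [478–511] for Nfib and Lhx8 cells, which include cholinergic precursors, at 389 [373–406]. In LGE, cells with Six3 and Sp9 were at 125 CPM [115–135] and cells with Ebf1 and Mapt but no Sp9 at 26.1 [20.5–32.8], and in MGE the latter combination was at 12.3 [4.94–25.3] (81 cells). In CGE it was at 104 [86.0–125] for Nfib and 123 [103–146] for Nfia. Sp8 cells without Lhx6 and Ebf1 were at 190 CPM [177–204] of Nfib in LGE and 665 [639–691] in CGE.

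**Figure D5:**
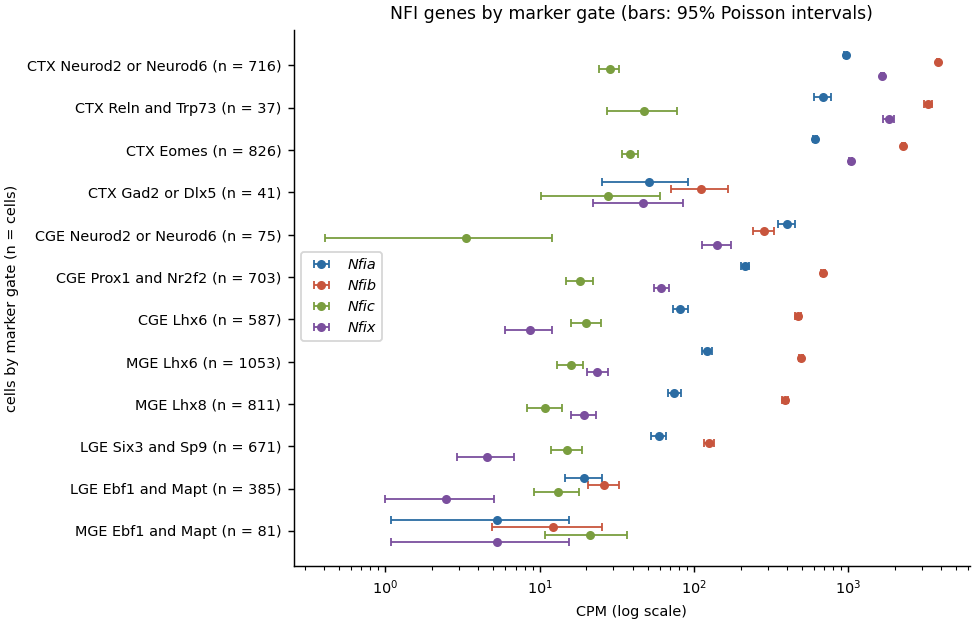
CPM (log scale) of the NFI genes in cells passing marker gates, with the number of cells, and 95% Poisson intervals (Nfia blue, Nfib red, Nfic green, Nfix purple). Nfib runs from 3808 CPM in excitatory marker cells of CTX to 12.3 CPM in Ebf1 and Mapt cells of MGE, and Nfic varies least.

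Both the Ebf1 and the Lhx6 split were tested over the 3 eminence libraries. Ebf1 is a gene of early striatal projection neurons. These splits took all cells with Dcx above 1.5, including 74 cells of LGE, 25 of MGE and 16 of CGE that also passed the Nes gate. Cells with an Ebf1 UMI held 36.2, 57.5 and 174 CPM of Nfib in LGE, MGE and CGE, and the other cells held 137, 446 and 531. Nfib was lower in 3 of 3 libraries, with a log2 fold change of -2.08 ± 0.24 (edgeR adjusted p = 0.0039), in a fit that called 4.76% of 12321 genes lower and 5.56% higher. Nfia was at -0.85 ± 0.34 (adjusted p = 0.172), passing without CGE at -1.50 ± 0.23 (adjusted p = 0.00437). Nfic was at 0.11 ± 0.26 and Nfix at -0.12 ± 0.35 (adjusted p = 0.852 and 0.884). Without the library block the Nfib call was lost (adjusted p = 0.218).

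For Lhx6, edgeR called 0% of 12276 genes higher and 0% lower at the adjusted threshold, with 294 higher and 481 lower at an unadjusted p under 0.05, and DESeq2 called 68 higher and 202 lower. No member passed. The Nfib log2 fold change was 0.39 ± 0.16 (adjusted p = 0.786), Nfia was at -0.48 ± 0.35 (adjusted p = 0.864), Nfic at 0.26 ± 0.25 (adjusted p = 0.88) and Nfix at -1.46 ± 0.47 (adjusted p = 0.684). Without MGE, where Lhx6 cells are most of the class (1796 cells, against 397 without), edgeR called 221 of 12411 genes higher and 432 lower, among them Nfia at -0.96 ± 0.20 (adjusted p = 0.0128) and Nfix at -2.36 ± 0.35 (adjusted p = 0.00167). That Nfix call rests on 1 UMI in 181 Lhx6 cells of LGE and 35 UMIs in 611 of CGE, fewer per cell than in the globin barcodes.

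Among high-Dcx cells, those with a UMI of Nfia, Nfib or Nfix held more of the other members of this trio in each library. In CTX high-Dcx cells with a Nfib UMI, the Nfia level was 24.8-fold [12.6–57.6] and the Nfix level 43.0-fold [21.8–99.7] that of cells without. The cells without were only 38, with 8 UMIs of Nfia and 8 of Nfix. The high-Dcx class also mixes marker types with different levels of these genes, as given above. No ratio was taken within a single type, so the values do not show that the genes vary together within a type. In MGE high-Dcx cells with a Nfib UMI, Nfia was 3.78-fold [3.22–4.46] and Nfix 2.90-fold [2.13–4.02], and in CGE the values were 3.29-fold [2.92–3.72] and 5.92-fold [4.41–8.08]. High-Nes cells were less uniform. In those of MGE with a Nfib UMI the ratios were 2.92-fold [1.98–4.48] and 3.70-fold [2.33–6.26], but for Nfix the ratio was 0.978-fold [0.645–1.56] in CTX and 1.67-fold [0.924–3.37] in CGE, both with intervals that include no difference. CTX high-Nes cells with a Nfia UMI held 1.22-fold [1.13–1.33] the Nfib of those without. Nfic was different in CTX high-Dcx cells, where cells with a Nfic UMI held 0.934-fold [0.876–0.995] the Nfia, 0.988-fold [0.957–1.02] the Nfib and 1.04-fold [0.995–1.09] the Nfix of other cells. In CGE high-Dcx cells with a Nfic UMI the ratios were 1.19 [1.04–1.35], 1.30 [1.22–1.38] and 2.77 [2.27–3.37]. Cells with a UMI of a gene also tend to be deeper, and CPM removes only part of that.

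Over the 8 profiles of library and class, Nfia and Nfix had the most similar log2(CPM + 1) profiles of any pair in the family (Pearson's r = 0.986, n = 8 profiles), followed by Nfia and Nfib (0.921) and Nfib and Nfix (0.892), and Nfib and Nfic had the least similar (0.595). These values are descriptions, since the 8 profiles come from 4 libraries. Among 5174 other genes at 50 or more CPM in some profile, those most like Nfia were Laptm4a (r = 0.964), Ppib (0.95) and Fth1 (0.944). Those most like Nfib were Smarcd3 (0.959), Nae1 (0.958) and Capns1 (0.956). Those most like Nfix were Laptm4a (0.972), Fth1 (0.965) and Mmd2 (0.956), and those most like Nfic were Fzd9 (0.986), Rpl31 (0.983) and Rpl41 (0.980). Mmd2, which is also on the list of genes tied to NFI below, was at 58.3, 20.1, 22.7 and 73.0 CPM in high-Nes cells and at 92.4, 1.40, 1.60 and 5.28 CPM in high-Dcx cells of CTX, LGE, MGE and CGE. It was higher in neurons in CTX and lower in neurons in each eminence, as Nfix was. Laptm4a had the same directions over a range of 193 to 341 CPM.

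A list of 22 genes tied to NFI by earlier work was set beside the family. It held 6 upstream or partner genes, 13 glial and progenitor genes and 3 neuronal genes. Over the 4 libraries, where 27.9% of all genes were higher and 28.1% lower, 4 of 6 upstream or partner genes tested were higher in high-Nes cells, among them Sox9, a gliogenic factor (log2 fold change 2.61 ± 0.39, adjusted p = 0.0029), and Notch1 (2.74 ± 0.34, adjusted p = 0.00146). Of 7 glial and progenitor genes tested, 6 were higher, including Slc1a3, a glutamate transporter of radial glia (5.03 ± 0.52, adjusted p = 0.00087), and Fabp7 (4.56 ± 0.50, adjusted p = 0.00105). Of the 3 neuronal genes 1 was lower, the adhesion gene Cntn2 (-6.06 ± 0.38, adjusted p = 0.000239). The median log2 fold change of the 7 glial and progenitor genes tested was 4.56. Progenitor genes were on the list and high-Nes cells were gated on a progenitor gene, so this direction says nothing about NFI. The same holds for the VZ cells below. Among astrocyte genes of the list, Gfap was at 0 CPM in each profile, and S100b and Aqp4 were at no more than 1.00 CPM. Aldh1l1, another astrocyte gene, was at 0.133 CPM in high-Nes cells of CTX but at 29.4, 12.4 and 26.6 CPM in those of LGE, MGE and CGE, against at most 0.381 CPM in high-Dcx cells.

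In VZ against SVZ cells, where 17.4% of all genes were higher and 18.7% lower, 7 of 8 tested glial and progenitor genes were higher and 1, Ezh2, was lower. In that test 3 of 6 upstream or partner genes were higher and 1 lower, and 1 of 3 neuronal genes was higher. In SVZ against MZ cells, where 22.7% of all genes were higher and 22.9% lower, the counts were 4 of 8 higher, 5 of 6 higher and 3 of 3 lower. In Ebf1 cells, with 5.56% of all genes higher and 4.76% lower, 2 of 5, 2 of 6 and 0 of 3 were lower and 2 neuronal genes higher, and in Lhx6 cells, where 0% of all genes passed, none of 14 did. Of 18 promoter windows of the 16 list genes matched, 8 held the core TTGGC on either strand (44.4%), close to the 46.7% of all windows.

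Other cell types and neighbouring genes could add to the sums. Cells carrying endothelial, mesenchymal or microglial markers had a higher Nfic level than any class or gate above, with 148 CPM [104–205] in 24 endothelial, 141 [107–181] in 53 mesenchymal and 102 [76.9–133] in 41 microglial cells over the 4 libraries. The summed CPM of the microglial list (6 genes) in high-Nes cells was 26.4, 1.41, 58.6 and 153 in CTX, LGE, MGE and CGE, that of the endothelial list (6 genes) 3.32 to 58.2 and that of the mesenchymal list (7 genes) 5.62 to 81.7, with at most 10.7 for any list in high-Dcx cells. With these cells removed the CTX over eminences log2 ratio of Nfic in high-Nes cells was 1.00, against 0.95 with them. The Nfic log2 fold change of high-Nes over high-Dcx cells was then 1.05 ± 0.12 (edgeR adjusted p = 0.00108), against 1.07 with them. Antisense genes overlap the family. The study's methods state default Cell Ranger parameters and name no strand setting, and whether reads of these genes were counted for the family was not tested. E130114P18Rik, which overlaps the start of Nfia, held 12% as many UMIs as Nfia and was at 93.6, 31, 15.2 and 38.5 CPM in high-Nes cells and 74.1, 5.60, 1.04 and 5.53 CPM in high-Dcx cells. Gm11266, within Nfib, held 1.98% as many as Nfib.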

How the data were processed

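The values deposited by the authors were UMI counts per gene and barcode for 4 droplet libraries (10x Genomics) of CTX, LGE, MGE and CGE tissue. They were made with Cell Ranger, version 3.0.2 per the file headers and 3.0.0 per the submitters' processing notes, on mm10, with default parameters per the study's methods. The annotation release was not given in the sources used here. Gene positions were taken from GENCODE M21 by gene ID.

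Barcodes with over 1500 but under 4500 genes were kept, given under 5% mitochondrial and under 1% Hbb UMIs, and predicted doublets (scored against simulated cell pairs, 0.8% removed per 1000 barcodes) were left out. Total counts were 31451467 to 49794765 UMIs per library. Counts were summed per library and class and tested with edgeR 4.0.16 (TMM, filterByExpr, quasi-likelihood test, library as block, Benjamini-Hochberg over all genes, call at 0.05). DESeq2 1.42.0 was an alternative. The tests were tried on simulated data first. Poisson, conditional binomial and Clopper-Pearson 95% intervals cover counting error only. A normal approximation to the Poisson error on the log scale was used for the ratio of CTX to the mean of the eminences. The members, gene lists and gates were chosen with earlier results of these data known. Named genes were the members, all genes of the list tied to NFI, the 3 genes most like each member and genes overlapping a member. No sample was left out, and 1 library per region means that p-values measure the spread between libraries of different regions. The replicate numbers are 1 in each region and pair no samples.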

Additional observations from a re-analysis of the deposited data

Results flagged for a closer look

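Nfia, Nfib and Nfix were singled out because their class difference had opposite signs in CTX and in each of the 3 eminences. The log2 ratio of high-Nes over high-Dcx CPM was -1.28 for Nfia, -1.53 for Nfib and -1.06 for Nfix in CTX. It was 2.32, 1.66 and 1.36 for Nfia, 1.75, 0.23 and 1.04 for Nfib and 4.92, 3.59 and 3.10 for Nfix in LGE, MGE and CGE. CTX had 1 library, so the difference was not tested. In CTX the cells with Gad2 or Dlx5 and without Neurod2 and Neurod6, a split chosen after the data had been seen, were below the high-Nes cells, at 0.135-fold [0.0674–0.242] for Nfia, 0.0888-fold [0.0569–0.132] for Nfib and 0.0611-fold [0.0293–0.112] for Nfix.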

How the results depend on the processing

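The classes compared came from the same libraries and were paired by the library block in each test. Replicate numbers pair no regions, since each region had 1 library. Of 184 fold changes of family members under other settings, 153 kept their direction and side of the threshold, 13 came to pass it, 7 no longer passed and 11 changed sign. In high-Nes against high-Dcx cells, Nfix passed with no filter on low counts (2.68, adjusted p = 0.0467) and with DESeq2 (2.86). Without the library block the log2 fold changes were -0.022 for Nfia, -0.67 for Nfib and -0.25 for Nfix, none past the threshold. Leaving out 1 library gave 0.55 to 1.69 for Nfia, -0.15 to 0.91 for Nfib, 0.99 to 1.12 for Nfic and 1.98 to 3.70 for Nfix, the lowest without LGE for Nfia, Nfib and Nfix, and the highest without CTX, where each of the 3 passed. In VZ against SVZ cells, Nfib passed with no filter on low counts (0.71). Nfia no longer passed with DESeq2 (0.87) or without the library block (0.79). Leaving out 1 library gave 0.74 to 1.07 for Nfia and 0.54 to 0.83 for Nfib, with 1317 to 1607 genes higher and 1251 to 1645 lower, and thinned cells gave 1194 and 1253, against 2037 and 2192. In SVZ against MZ cells, Nfib passed with no filter (0.36) and Nfix no longer passed without the block (1.36). Leaving out 1 library gave 0.069 to 0.75 for Nfib, -0.40 to 0.16 for Nfic and 1.03 to 1.81 for Nfix, with 1774 to 2323 genes higher, and thinned cells gave 1753 higher and 1685 lower, against 2667 and 2687.

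In Lhx6 cells, 41 genes were higher and 165 lower with no filter, 68 and 202 with DESeq2, 3 lower without the block and 19 lower in thinned cells. Leaving out 1 library gave 0 to 221 higher and 0 to 432 lower, with -0.96 to -0.19 for Nfia and -2.36 to -0.93 for Nfix. In Ebf1 cells 1233 genes were higher and 1221 lower with no filter, where Nfia passed (-0.89), 1103 and 891 with DESeq2, 32 and 22 without the block and 373 and 337 in thinned cells. Without the block Nfib no longer passed (-2.06) and Nfix was at 0.077, and in thinned cells Nfix was at 0.18, neither Nfix value past the threshold. Leaving out 1 library gave 203 to 711 genes higher and 165 to 628 lower, with -1.50 to -0.49 for Nfia, -0.16 to 0.31 for Nfic and -0.94 to 0.16 for Nfix.

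The log2 ratio of CTX to the mean of the eminences in high-Nes cells was 0.47 for Nfia, 1.09 for Nfib and 1.76 for Nfix with a gate of 1.0, and 0.29, 0.91 and 1.51 with a gate of 2.0, against 0.38, 1.00 and 1.68. Thinned cells gave 0.28 for Nfia and 0.93 for Nfib. In high-Dcx cells a gate of 2.0 gave 3.30 for Nfib, 0.54 for Nfic and 6.41 for Nfix, against 3.41, 0.89 and 6.28, no upper gene limit gave 6.18 for Nfix, and 10 CPM added to each level gave 3.20 for Nfia, 3.37 for Nfib, 0.60 for Nfic and 5.72 for Nfix. In the cells with Gad2 or Dlx5 and without Neurod2 and Neurod6, added after the data had been seen, it was -0.73 for Nfia, -1.62 for Nfib and 1.47 for Nfix. All 32 shares of cells with a UMI were higher at own depth and lower at 2000 UMIs per cell. Each region had 1 library, so no value here bounds the spread between embryos or dissections. The cause of these changes was not tested.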
